A study of Mus musculus with 8 samples.

Results

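Amino acid solute carriers are the membrane proteins that take amino acids, and in some subfamilies related small molecules, across the plasma membrane and the lysosomal membrane. Genes were taken as members by their symbol, which had to start with Slc1a, Slc3a, Slc6a, Slc7a, Slc36a, Slc38a or Slc43a followed by a number. The rule found 34 genes with 41 probes among the 10944 genes measured. The rule reads the symbol only, though it was chosen with earlier results of these data known. RefSeq lists 67 symbols of this form for the mouse, and the other 33 were not analysed here. Of the 34, Slc7a6os is named for lying on the strand opposite to Slc7a6 and encodes no carrier, and Slc3a2 encodes a partner chain of carriers.

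The cells were primary hepatocytes of male C57Bl6/J mice, freed from the liver with collagenase, and all carry the mark wt in their labels. Metformin, a biguanide that lowers blood glucose, was given to 4 samples at 500 µM for 24 h, and 4 control samples had the same 24 h without it. Total RNA of each sample was read on 1 Illumina bead array, and every level below is a deposited log2 intensity of 1 probe. The labels do not say how many animals or isolations the samples came from, so p-values speak only of the spread among these 8 samples, and that spread may be technical.

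Each subfamily has its own transport mechanism. Slc1a proteins carry glutamate or small neutral amino acids together with sodium. Slc7a proteins are either cationic amino acid carriers that work alone or light chains that exchange amino acids once they are bound to a heavy chain, which for most of them is encoded by Slc3a2. Slc38a proteins move glutamine, alanine and other neutral amino acids with sodium, Slc36a proteins move small amino acids with protons, and Slc6a proteins use sodium and chloride to take up amino acids, taurine, creatine, betaine or neurotransmitters. In the liver these carriers supply the urea cycle, gluconeogenesis and glutamine metabolism.

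The arrays were alike in their distribution, with a median of 6.48 log2 units on each. Correlations across genes were 0.978 to 0.990 between metformin arrays, 0.972 to 0.987 between control arrays and 0.961 to 0.983 between the groups. Of 8 hepatocyte markers 7 were measured, and none passed the threshold. Ttr (13.68 ± 0.23 with metformin and 13.64 ± 0.15 in control; mean ± SD, n = 4 each), Apoa1 and Hnf4a (10.18 ± 0.063 and 10.07 ± 0.18) were read far above the lower end of the scale. Alb (6.05 ± 0.35 and 5.65 ± 0.29), Cps1 (6.26 ± 0.23 and 6.45 ± 0.39) and Fgb (4.54 ± 0.16 and 4.84 ± 0.49) were read much lower. Whether the probes or the amount of RNA account for these lower readings was not tested. All 3 measured biliary markers and all 8 sinusoidal endothelial markers had positive changes, beside 5606 of all 10944 genes. The endothelial changes ran from 0.038 (Kdr) to 1.28 (Lyve1). In limma 0 of either list passed, with 1 of each at an unadjusted p under 0.05. That is 33.3% and 12.5% of these short lists, beside 23.8% of all genes. The mean level of the biliary markers ran from 6.88 to 8.26 on metformin arrays and from 6.51 to 7.05 on control arrays, that of the endothelial markers from 5.64 to 6.96 and from 5.68 to 6.56. Of 5 Kupffer cell, 7 stellate cell and 3 lymphocyte or blood markers, 0 passed either, and 1 stellate marker had an unadjusted p under 0.05. Their mean levels were 5.32 to 6.71 and 5.48 to 7.01 for Kupffer cells, 6.48 to 7.03 and 6.49 to 7.07 for stellate cells, and 4.44 to 4.51 and 4.32 to 4.73 for blood, each with metformin and in control. With the replicate number as a block, Krt19, Lyve1 and Stab2 were higher and Vsig4 lower (adjusted p = 0.0185, 0.0420, 0.0450 and 0.0408 in limma). The same fit called 4.41% of all genes higher and 4.08% lower. The part of such cells in the carriers' values was not tested, and in whole samples fewer cells of a type and less RNA per cell cannot be told apart.

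Few amino acid carriers changed with metformin. Slc38a3, a glutamine carrier, rose, while the glutamate carrier Slc1a2 and the light chain gene Slc7a6 fell, each by less than 2-fold. The other 31 members did not pass the threshold, an adjusted p under 0.05 in limma over all 10944 genes. The 1 member that rose is 2.94% of 34, beside 3.32% of all genes, and the 2 that fell are 5.88%, beside 3.44% of all genes. Together 8.82% of the members passed, beside 6.76% of all genes, so the share of changed carriers lay near that of the whole array. These counts are from the fit without the replicate number. With that number as a block, Slc1a4 rose too (adjusted p = 0.0202 in limma), and 4.41% of all genes were called higher. Of the 34, 20 had a positive and 14 a negative change. Their median was 0.081 log2 units, beside 0.010 for all genes, and the median size of a change regardless of sign was 0.18, beside 0.20.

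Several carriers lay apart between the groups without passing. All 4 metformin arrays were above all 4 control arrays for 6 members, which is 17.6% of them beside 7.70% of all genes, and below them for 2 members, or 5.88% beside 7.57%. At an unadjusted p under 0.05 there were 9 members, 7 higher and 2 lower, which is 26.5% beside 23.8% of all genes. Each of the 3 calls held in 1 of the 8 fits that left out 1 array. Those fits called 174 to 794 of all genes, beside 740 with all 8 arrays.

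**Figure D1:**
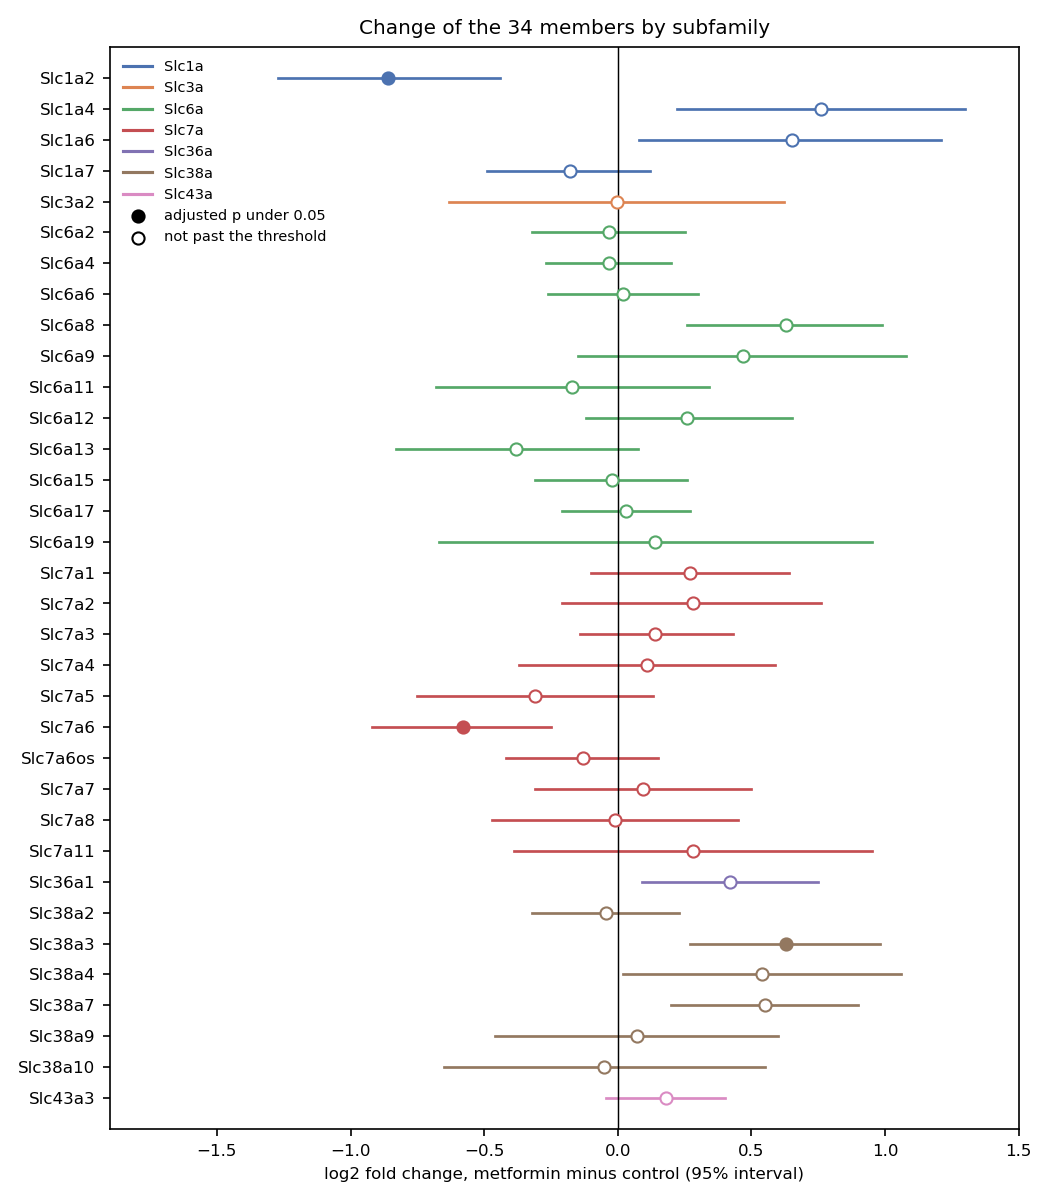
Log2 fold change (metformin minus control, horizontal axis) of the 34 members by subfamily, with 95% intervals from limma; filled points had an adjusted p under 0.05. The 3 filled points are Slc1a2 at -0.86, Slc7a6 at -0.58 and Slc38a3 at 0.63, and most intervals cross 0.

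By subfamily, 1 of 4 Slc1a genes passed (Slc1a2, lower), 1 of 10 Slc7a genes (Slc7a6, lower) and 1 of 6 Slc38a genes (Slc38a3, higher). Among the Slc6a genes 0 of 11 passed in limma, with 1 at an unadjusted p under 0.05. Slc3a, Slc36a and Slc43a were represented by 1 gene each, and 0 of the 3 passed, with Slc36a1 alone at an unadjusted p under 0.05. The median change was 0.23 log2 units for Slc1a, 0.31 for Slc38a, 0.10 for Slc7a and 0.019 for Slc6a, beside 0.010 for all genes. The Slc1a median joins 2 positive and 2 negative changes, from -0.86 to 0.76, so the subfamily did not move as a group. In Slc38a 4 of 6 changes were positive and the other 2 were -0.045 and -0.050. Members are not replicates, and no difference between subfamilies was tested.

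Slc1a2 encodes the sodium-coupled glutamate carrier best known from astrocytes, which in the liver is found in hepatocytes around the central vein. It had 6.40, 5.84, 5.97 and 5.60 log2 units on the metformin arrays, against 6.98, 6.57, 7.04 and 6.65 on the control arrays. Every metformin value lay below every control value, and metformin replicate 1 came nearest to the controls. Slc1a2 fell by 0.86 ± 0.19 log2 units (SE, n = 4 each), or 1.81-fold, with an adjusted p of 0.0307 in limma and a 95% interval from -1.27 to -0.44.

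Slc1a2 was also the only member that fell or rose with more than 1 probe. The middle probe gave 6.11, 5.51, 5.29 and 5.52 with metformin, against 6.57, 6.63, 6.55 and 6.54 in control. The dimmest probe gave 4.71, 4.42, 4.46 and 4.60 with metformin, against 5.55, 5.28, 5.26 and 5.20 in control. At all 3 probes the groups lay apart, and the changes were -0.86, -0.96 and -0.77 log2 units. Fitted over all 16304 probes, these 3 had adjusted p of 0.0319, 0.0168 and 0.0141 in limma. They read 1 gene in the same 8 samples, so they are not independent samples.

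The call of the brightest Slc1a2 probe was lost in limma in 7 of the 8 fits that each left out 1 array. Omitting control replicates 1, 2, 3 and 4 gave adjusted p of 0.0530, 0.0511, 0.0830 and 0.0575, and omitting metformin replicates 2, 3 and 4 gave 0.0850, 0.0880 and 0.0549. Omitting metformin replicate 1 gave 0.0191, and over these fits the change stayed between -1.01 and -0.74.

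**Figure D2:**
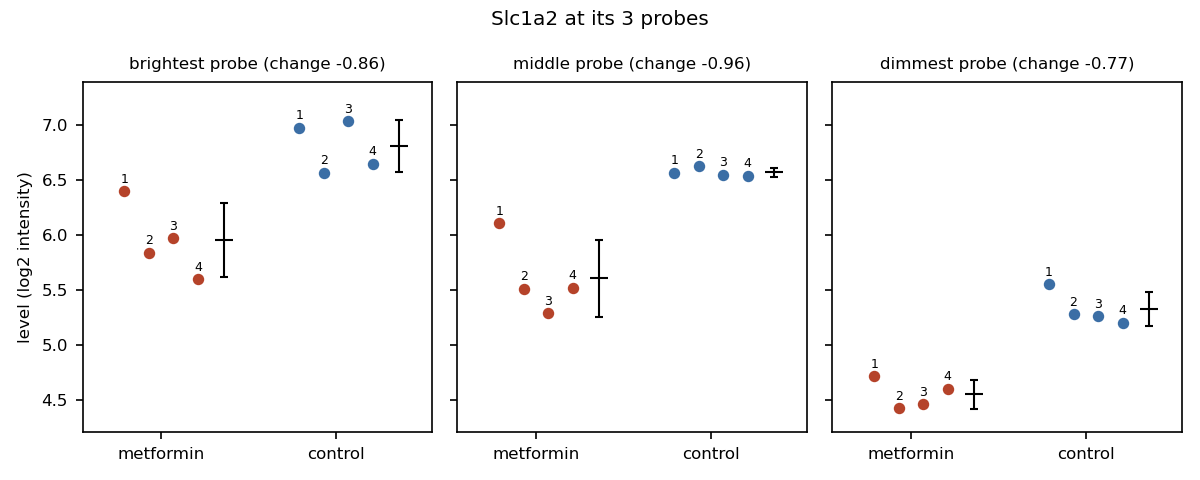
Level (log2 intensity, vertical axis) of Slc1a2 at each of its 3 probes on the 4 metformin and 4 control arrays, numbered by replicate, with mean and SD beside the points. At every probe the 4 metformin points lie below the 4 control points.

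The other Slc1a members did not pass. Slc1a4, a carrier of alanine, serine and cysteine, had 6.57, 7.47, 7.10 and 6.55 with metformin, against 6.14, 6.54, 6.25 and 5.72 in control. The groups were apart by only 0.010 log2 units, between metformin replicate 4 and control replicate 2. Its change was 0.76 ± 0.24 (adjusted p = 0.0897 in limma), the largest positive value among the members. With the replicate number as a block its adjusted p was 0.0202, so that the block made it a second higher member. Slc1a6, a glutamate carrier of the cerebellum, had a change of 0.65 ± 0.25 (adjusted p = 0.158 in limma), with 5.30 to 5.87 in metformin samples and 4.42 to 5.41 in control samples, which overlapped. Slc1a7, a glutamate carrier of the retina, was read near the lower end of the scale, with a change of -0.18 ± 0.14.

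Amino acid shortage is known to induce many carriers through ATF4, which binds with partners of the CCAAT enhancer binding protein family. The letters TGATGNAA, which belong to that response element, and CACGTG, the E-box of MYC, USF and TFEB factors, were therefore searched on both strands of the RefSeq promoters, from 250 bases before to 50 after each start. Promoters were found for 24 of the 34 members, 41 in all. TGATGNAA stood in 4 of these 41 and in 3.97% of all 32851 promoters, CACGTG in 4 of 41 and in 7.15% of all. Overlapping promoters of Slc7a7 share a TGATGNAA site, so that site is counted more than once. By gene, TGATGNAA stood in 3 of 24 members, beside 4.51% of all genes with a promoter, and CACGTG in 4 of 24, beside 8.09%. The members with TGATGNAA were Slc1a4, Slc7a7 and Slc7a11, and those with CACGTG were Slc1a6, Slc1a7, Slc36a1 and Slc38a7. Bases outside these windows were not searched, so a gene without a match may hold the letters elsewhere. No promoter of Slc38a3 was in the table, and those of Slc1a2 and Slc7a6 held neither set of letters. No match of one motif overlapped one of the other.

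Since no member past the threshold held a match, 2 other carriers are shown: Slc1a4, which passed with the replicate block, and Slc7a11, a known target of the response. Each stretch runs from 100 bases before to 50 after the start, 5′ to 3′ in the direction of the gene, from RefSeq on GRCm38.p6. Capitals mark TGATGNAA or its reverse complement. They were picked after their values were seen, and a match is a description of the letters only.
Slc1a4, chr11:20332664-20332813, minus strand: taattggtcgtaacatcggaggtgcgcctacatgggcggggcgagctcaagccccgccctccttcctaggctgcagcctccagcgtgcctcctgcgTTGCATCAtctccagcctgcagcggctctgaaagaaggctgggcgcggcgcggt
Slc7a11, chr3:50443564-50443713, minus strand: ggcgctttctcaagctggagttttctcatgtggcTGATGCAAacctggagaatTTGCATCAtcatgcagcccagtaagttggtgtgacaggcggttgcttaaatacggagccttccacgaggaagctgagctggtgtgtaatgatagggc

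Slc1a4 held 1 match, starting 4 bases before the annotated start, beside the change of 0.76 that did not pass. Slc7a11 held 2, starting 66 and 47 bases before the start, once in each orientation, and its change of 0.28 did not pass either. Slc7a7, which is not shown, held matches 243 bases before 1 of its starts and 141 and 1 bases before another. Those at 243 and 1 are the same site in the genome. The change of Slc7a7 was 0.093, and -0.022 at its second probe.

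Among the heteromeric carriers, Slc7a6 was the member that fell. It encodes a light chain that exchanges cationic amino acids for neutral ones with sodium. Its probe had 5.61, 5.48, 5.09 and 5.30 log2 units with metformin, against 6.09, 5.88, 5.73 and 6.12 in control. The groups did not overlap, and the gap between metformin replicate 1 and control replicate 3 was 0.12. Slc7a6 fell by 0.58 ± 0.15 (SE, n = 4 each), or 1.50-fold, with an adjusted p of 0.0482 in limma. The limma call was lost on omitting control replicate 1, 2, 3 or 4 (adjusted p = 0.0797, 0.0884, 0.0703 and 0.111) or metformin replicate 2, 3 or 4 (0.0947, 0.134 and 0.0897). It was also lost over all probes (0.0529) and with an intensity trend (0.0838). Its neighbour on the other strand, Slc7a6os, had a change of -0.13 ± 0.13 (adjusted p = 0.567 in limma).

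Slc3a2 encodes the heavy chain that Slc7a6 and 4 other measured light chains, Slc7a5, Slc7a7, Slc7a8 and Slc7a11, need to reach the membrane. It had 5.64, 6.71, 6.94 and 6.26 with metformin, against 6.48, 6.77, 5.95 and 6.36 in control. The groups overlapped almost fully, with a change of -0.0036 ± 0.28 (adjusted p = 0.995 in limma). The 95% interval ran from -0.63 to 0.62, and so holds a value as low as the change of Slc7a6.

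The light chains other than Slc7a6 did not pass. Slc7a5, which exchanges large neutral amino acids such as leucine, had 8.15 to 8.93 in metformin samples, against 8.57 to 9.08 in control samples. Its groups overlapped, while within each of the 4 replicate numbers its metformin value was the lower. The change was -0.31 ± 0.19 (adjusted p = 0.374 in limma, and 0.147 with the replicate block). Slc7a11, which exports glutamate and imports cystine for glutathione synthesis, had 9.51, 8.83, 9.69 and 8.57 with metformin, against 9.57, 8.73, 8.53 and 8.65 in control. Control replicate 1 was as high as the upper metformin arrays, and the change was 0.28 ± 0.30 (adjusted p = 0.612 in limma), with an interval from -0.39 to 0.95. Slc7a7, a light chain for cationic amino acids, and Slc7a8, one for neutral amino acids, had changes of 0.093 ± 0.18 and -0.011 ± 0.21. Their second probes gave -0.022 and 0.25, so that for both genes the sign depended on the probe.

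The cationic amino acid carriers that need no heavy chain did not pass either. Slc7a2, the carrier of arginine and lysine that is typical of hepatocytes, had 8.58, 8.66, 8.77 and 8.59 with metformin, against 7.68, 8.83, 8.44 and 8.55 in control. The metformin samples differed little from each other, control replicate 1 stood low, and the change was 0.28 ± 0.22 (adjusted p = 0.488 in limma). Without that array the change was 0.043, and the other probes of Slc7a2 gave 0.0038 and -0.061. Slc7a1, the widely expressed arginine carrier, had 4.31 to 5.07 with metformin and 4.33 to 4.44 in control, close to the lower end of the scale, with a change of 0.27 ± 0.17. Slc7a3, an arginine and lysine carrier that was also near the lower end, had a change of 0.14 ± 0.13, and Slc7a4, a relative of these carriers, had one of 0.11 ± 0.21.

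Slc38a3, the only member that rose without the replicate block, encodes a sodium-coupled glutamine, asparagine and histidine carrier of the plasma membrane of hepatocytes. It had 7.96, 7.89, 8.04 and 7.51 log2 units with metformin, against 7.35, 6.89, 7.32 and 7.33 in control. All metformin values lay above all control values, with 0.16 between metformin replicate 4 and control replicate 1. Slc38a3 rose by 0.63 ± 0.16 (SE, n = 4 each), or 1.55-fold, with an adjusted p of 0.0465 in limma and an interval from 0.27 to 0.98. The limma call was lost on omitting control replicate 1, 2, 3 or 4 (adjusted p = 0.0548, 0.0968, 0.0900 and 0.0823) or metformin replicate 1, 2 or 3 (0.0802, 0.113 and 0.139). Over all probes its adjusted p was 0.0505.

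Slc38a7, which exports glutamine and asparagine from lysosomes, had 8.06, 8.47, 8.73 and 8.25 with metformin, against 7.91, 7.93, 7.65 and 7.83 in control. Its groups did not overlap, and the change of 0.55 ± 0.15 had an adjusted p of 0.0662 in limma. It passed without metformin replicate 1 (0.0390), with array weights (0.0250) and with the lower 50% of genes left out (0.0355). It did not pass with the replicate block (0.0803 in limma) or on omitting any other array (0.0801 to 0.163). Slc38a4, a carrier of neutral amino acids that is strongly expressed in the liver, had 10.02, 10.32, 10.72 and 10.49 with metformin, against 10.47, 9.39, 9.83 and 9.69 in control. Control replicate 1 lay among the metformin values, and the change was 0.54 ± 0.23 (adjusted p = 0.196 in limma). Without that array the change was 0.75 and the adjusted p 0.0484. Omitting any other array gave an adjusted p of 0.133 to 0.408 in limma, and the replicate block gave 0.196.

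The remaining Slc38a genes had small changes. Slc38a2, the carrier that cells induce when amino acids are scarce, had 9.60, 9.86, 9.81 and 9.93 in metformin samples, against 9.80, 9.99, 9.66 and 9.93 in control samples. The groups overlapped fully, with changes of -0.045 ± 0.12 and -0.11 ± 0.17 at its 2 probes. The interval of the brighter probe, from -0.32 to 0.23, leaves out a change as large as that of Slc38a3. Slc38a9, the lysosomal arginine sensor of the mTORC1 pathway, had 0.070 ± 0.24, and Slc38a10 had -0.050 ± 0.27.

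Slc36a1, the proton-coupled carrier that exports small amino acids from lysosomes, had 5.86, 5.84, 6.28 and 5.83 with metformin, against 5.53, 5.73, 5.28 and 5.58 in control. The groups lay apart by 0.092, metformin replicate 3 was well above the other metformin arrays, and the change was 0.42 ± 0.15 (adjusted p = 0.117 in limma). Of the lysosomal members, Slc38a9 held no E-box letters in its promoter and had a change of 0.070. Slc36a1 and Slc38a7 also act at the lysosome, and both had the E-box letters near their start. They are shown for these matches, from 100 bases before to 50 after the start, from RefSeq on GRCm38.p6, with CACGTG in capitals. Both were picked after the values were seen, and neither passed. Whether the letters bear on the changes was not tested.
Slc36a1, chr11:55204240-55204389, plus strand: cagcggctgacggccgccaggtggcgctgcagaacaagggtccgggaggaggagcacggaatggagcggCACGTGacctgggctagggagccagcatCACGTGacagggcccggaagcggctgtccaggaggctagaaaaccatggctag
Slc38a7, chr8:95853442-95853591, minus strand: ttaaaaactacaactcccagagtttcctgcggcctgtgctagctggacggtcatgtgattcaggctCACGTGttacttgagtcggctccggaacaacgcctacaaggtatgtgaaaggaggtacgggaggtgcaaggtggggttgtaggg

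Slc36a1 held the letters 31 and 3 bases before the start and Slc38a7 held them 34 bases before it. CACGTG is its own reverse complement, so it reads the same on both strands. Slc1a6, with a change of 0.65, and Slc1a7, with one of -0.18, also held a match, 32 and 60 bases before the start.

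**Figure D3:**
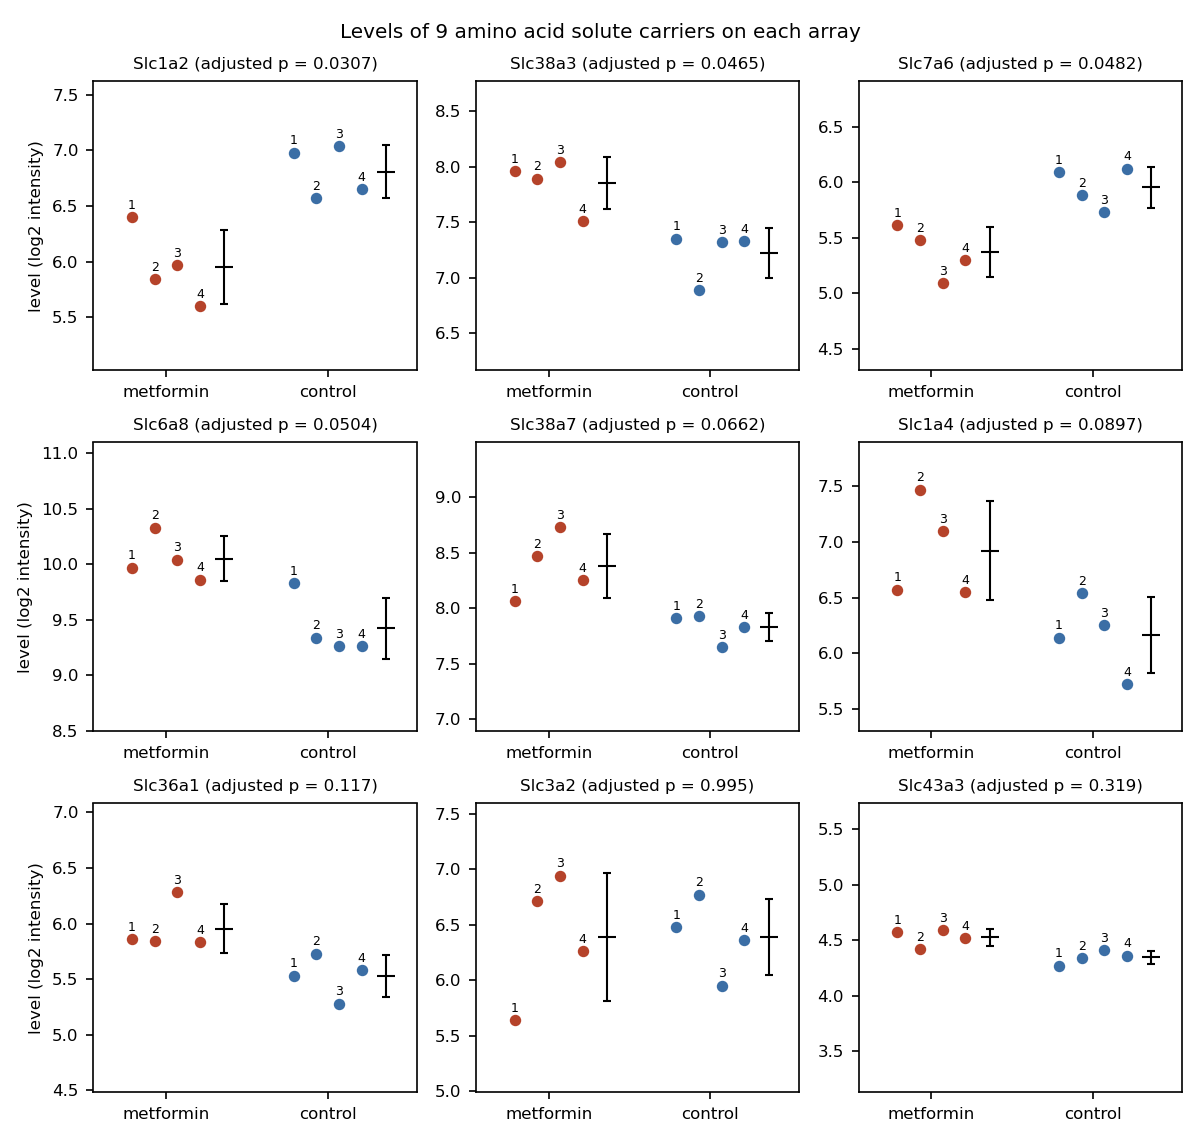
Levels (log2 intensity, vertical axis, the same span in each panel) of 9 members on the 4 metformin and 4 control arrays, numbered by replicate, with mean and SD beside the points. Slc1a2 and Slc7a6 were lower and Slc38a3 higher with metformin, Slc6a8, Slc38a7, Slc1a4, Slc36a1 and Slc43a3 did not overlap but did not pass, and Slc3a2 overlapped.

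Slc6a8, the creatine carrier, was the Slc6a gene with the smallest p. It had 9.97, 10.33, 10.04 and 9.86 with metformin, against 9.83, 9.34, 9.26 and 9.26 in control. Its groups did not overlap, but control replicate 1 lay only 0.034 below the lowest metformin value. The change was 0.63 ± 0.16, or 1.54-fold, with an adjusted p of 0.0504 in limma, just outside the threshold. It was 0.0208 without control replicate 1, 0.0533 with the replicate block and 0.0194 to 0.131 over all alternatives.

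Osmolyte and glycine carriers of this subfamily did not pass. Slc6a6, the taurine carrier, had 11.91, 11.97, 11.95 and 11.60 with metformin, against 11.94, 11.91, 11.81 and 11.70 in control, with a change of 0.019 ± 0.12 and an interval from -0.26 to 0.30. Slc6a12, which carries betaine, had a change of 0.26 ± 0.17, and Slc6a13, a GABA and taurine carrier of hepatocytes, one of -0.38 ± 0.20 (adjusted p = 0.393 and 0.296 in limma). Slc6a13 had 8.77, 8.06, 8.25 and 8.06 with metformin, against 8.87, 8.23, 8.91 and 8.64 in control. Metformin replicates 1 and 3 lay within the range of the control arrays, while within each of the 4 replicate numbers the metformin value was the lower (adjusted p = 0.139 in limma with the block). Slc6a9, the glycine carrier, had 8.39, 8.54, 8.09 and 7.63 with metformin, against 8.31, 7.83, 7.58 and 7.07 in control. Within each replicate number its metformin value was the higher, while the groups overlapped, and the change of 0.47 ± 0.27 had an adjusted p of 0.342 in limma and of 0.0785 with the replicate block.

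The other Slc6a genes are mostly carriers of nerve or epithelial cells. Slc6a19, the neutral amino acid carrier of gut and kidney epithelium, ranged from 5.12 to 6.31 with metformin and from 4.79 to 6.51 in control, with a change of 0.14 ± 0.36. The noradrenaline carrier Slc6a2 (-0.033), the serotonin carrier Slc6a4 (-0.034), the GABA carrier Slc6a11 (-0.17) and the neuronal amino acid carriers Slc6a15 (-0.023) and Slc6a17 (0.031) were all in the lowest 25% of genes by mean intensity. In all, 9 members were in that lowest 25%, these 5 with Slc1a7, Slc7a1, Slc7a3 and Slc43a3, and 0 of the 9 passed in limma or had an unadjusted p under 0.05. Whether such probes were above background is unknown here, and a change at that level can be understated.

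Slc43a3 encodes a purine nucleobase carrier, the 1 measured gene of a subfamily whose other members carry large neutral amino acids. It had 4.57, 4.42, 4.59 and 4.52 with metformin, against 4.27, 4.34, 4.41 and 4.36 in control. The groups were apart by 0.0076 log2 units at the lower end of the scale, with a change of 0.18 ± 0.10 (adjusted p = 0.319 in limma).

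Likeness across the 8 arrays was computed for Slc1a2, the member with the smallest p. The members whose levels ran most like those of Slc1a2 were Slc6a13 (Pearson r = 0.87 over 8 arrays), Slc7a6 (0.79) and Slc1a7 (0.74). These values include the difference between the groups. For deviations from the group means they were 0.93, 0.21 and 0.68. By that measure the value farthest from 0 was that of Slc38a2, which ran opposite to Slc1a2 at -0.96, and Slc7a3 (0.85), Slc7a5 (-0.83) and Slc7a6os (-0.81) came next after Slc6a13. The arrays share their normalization, so the values are descriptions only.

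**Figure D4:**
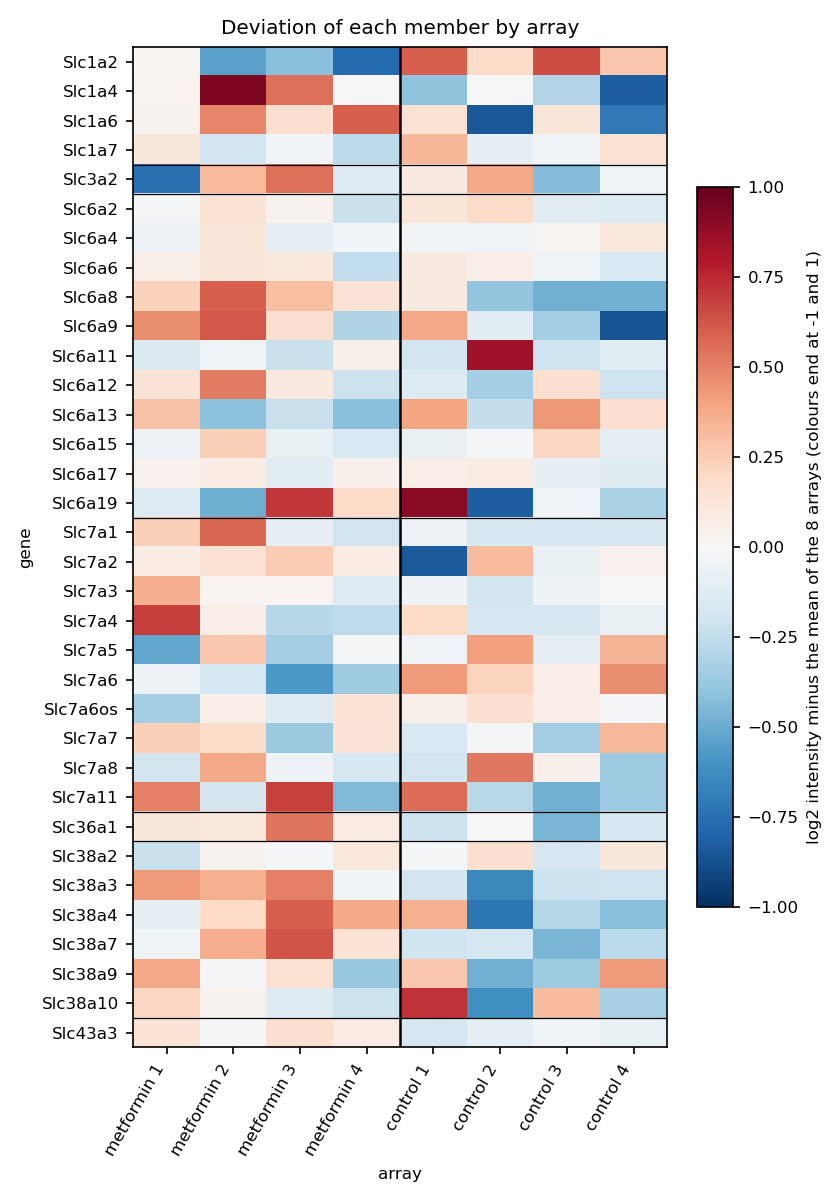
Deviation of each member (rows, by subfamily) from its mean over the 8 arrays in log2 units (colour), with the 4 metformin arrays left of the 4 control arrays. Slc1a2 and Slc7a6 are blue or pale on the metformin side, Slc38a3, Slc38a7 and Slc6a8 are red or pale there, and many rows differ as much within a group as between the groups.

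Outside the 7 subfamilies, 14 further carriers and partner proteins and 16 regulators were listed, of which 7 and 13 were measured. Of the 7 carriers and partners 1 rose and 0 fell in limma, with 3 higher and 0 lower at an unadjusted p under 0.05. These are 14.3% and 42.9% of so short a list, beside 6.76% and 23.8% of all genes, and the median change was 0.29, beside 0.010 for all genes. The one that rose was Ctns, which exports cystine from lysosomes. It had 8.10, 8.15, 8.14 and 7.89 with metformin, against 7.47, 7.44, 7.59 and 7.64 in control. The groups lay apart, with a change of 0.54 ± 0.11 (adjusted p = 0.0257 in limma). Its other probe gave 0.31 ± 0.13 and did not pass in the fit over all probes (adjusted p = 0.202 in limma). The call of Ctns was lost on omitting control replicate 2 or 3 (0.0628 and 0.0648) or metformin replicate 2 or 3 (0.0771 and 0.0852). Slc17a8, a vesicular glutamate carrier, had 0.52 ± 0.18 (adjusted p = 0.112 in limma) at a dim probe.

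Of the 13 regulators 0 rose and 2 fell in limma, with 2 higher and 2 lower at an unadjusted p under 0.05 and a median change of 0.11. These are 15.4% and 30.8% of the list, beside 6.76% and 23.8% of all genes. Myc, a transcription factor that drives several amino acid carriers in growing cells, had 6.66, 6.43, 6.47 and 6.27 with metformin, against 7.42, 7.38, 7.23 and 7.06 in control, and fell by 0.81 ± 0.13 (adjusted p = 0.0135 in limma). Its groups did not overlap, and the call of Myc held on omitting any 1 array (0.0178 to 0.0456). Nfe2l2, which encodes the oxidative stress factor NRF2, an activator of Slc7a11, had 8.72, 8.14, 8.10 and 8.06 with metformin, against 8.60, 9.20, 9.14 and 9.16 in control. It fell by 0.77 ± 0.19 (adjusted p = 0.0431 in limma), but its groups overlapped, its other probe gave 0.14 ± 0.12, and its adjusted p was 0.0676 with the replicate block. Its limma call held on omitting control replicate 1 (0.0238) or metformin replicate 1 (0.0214), and the other 6 omissions gave 0.0864 to 0.130. Atf4, the transcription factor of the amino acid response, had a change of -0.019 ± 0.17, and its partners Cebpb and Cebpg had 0.46 ± 0.17 and 0.30 ± 0.17 without passing.

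**Figure D5:**
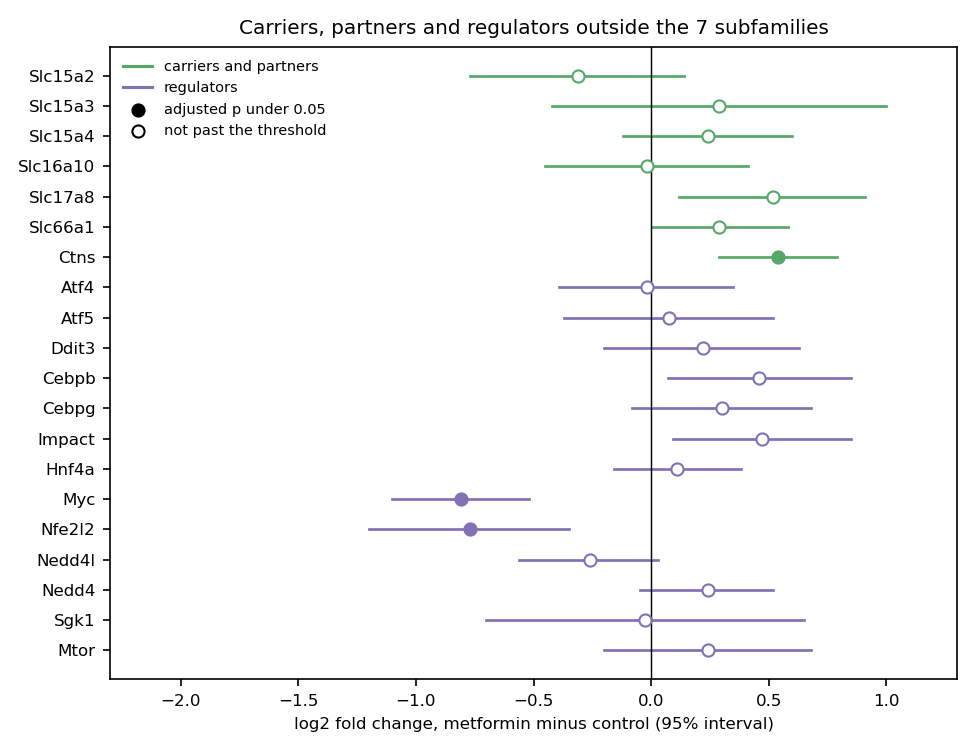
Log2 fold change (metformin minus control, horizontal axis) with 95% intervals for the 7 carriers and partners and the 13 regulators measured outside the 7 subfamilies; filled points had an adjusted p under 0.05. Ctns (0.54) is filled on the higher side, and Myc (-0.81) and Nfe2l2 (-0.77) on the lower side.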

How the data were processed

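Metformin and control samples, 4 each by their titles, were compared in primary mouse hepatocytes. The log2 intensities were deposited by the authors as 1 value table of 16304 probes; background correction, normalization method and probe filter are not given in the sources used here. As tools, R 3.2.3 and limma 3.26.9 are listed per the submitters' processing notes, without their roles. The deposited log2 values lay between 4.16 and 14.4 and were used without further normalization; the number of arrays limits the precision.

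Of the probes, 15301 had 1 gene symbol in the platform's annotation, 0 had several and 1003 are unnamed here. Symbols of 15294 were updated by Entrez number through the RefSeq table of GRCm38.p6, whose gene coordinates were not used, since the array's build is unknown here; no slide or scan batch is named either. The probe with the highest mean stood for its gene, which left 10944 genes. Metformin minus control was fitted with limma 3.58.1 (lmFit, eBayes) in R 4.3.3, with Benjamini-Hochberg adjustment over all genes and a threshold of 0.05; ± is the SE of a change, or the SD of a level where stated. The fit was tested on simulated data with noise drawn independently for each array, which leaves out any likeness of same-numbered arrays. How often that test recovered a change is not given here.

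The members and lists were chosen with earlier results of these data known. Values of all 8 arrays are given for members past the threshold and for the smallest p in each other subfamily; 25 members were to be named whatever their values, of which 19 were measured and 6 were not analysed here. Values by array of other members, and the promoters shown, were chosen after the values were seen, since no promoter of a member past the threshold held a match. Protein sequences were not used here.

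Deviations from the group means of same-numbered arrays correlated at 0.32, 0.28, 0.15 and 0.23 over all genes. All were over 0.1, but arrays with different numbers were not compared in this way, so whether the numbers pair the samples is not settled. The main fit did not use the numbers, and a fit with the number as a block is given where it changed a call. Alternatives were each array left out, the block, the mean of a gene's probes, every probe, an offset of 16, the lowest 25% or lower 50% of genes left out, quantile normalization, array weights and an intensity trend.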

Additional observations from a re-analysis of the deposited data

Results flagged for a closer look

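In 6 of 68 groups of 4 arrays, 1 array stood far from the other 3 by Dixon's gap ratio at the 95% level, where chance gives about 1 in 20 groups. Slc38a3 was low on control replicate 2 (6.89, the others 7.32 to 7.35), and Slc36a1 was high on metformin replicate 3 (6.28, the others 5.83 to 5.86). Slc6a8 was high on control replicate 1 (9.83, the others 9.26 to 9.34). Slc6a6 was low on metformin replicate 4 (11.60, the others 11.91 to 11.97). Slc6a11 was high on control replicate 2 (5.39, the others 4.34 to 4.44), and Slc7a1 on control replicate 1 (4.44, the others 4.33 to 4.34), both at dim probes.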

How the results depend on the processing

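The number of higher members was 1 with the settings of the report. It was 2 with the replicate block, the mean of a gene's probes, the offset of 16, the lowest 25% of genes left out or an intensity trend, 3 with the lower 50% left out, 4 with array weights and 0 when every probe was fitted. The number of lower members was 2, but 1 with every probe or the trend and 0 with the lower 50% left out, which removes Slc1a2 and Slc7a6 from the genes tested. Quantile normalization changed none of these counts. The sorted deposited arrays already differed by at most 0.091 log2 units, so that setting could hardly change them. Without 1 array the count was 0 to 2 for higher and 0 to 2 for lower members, 0 to 1 for Slc1a, Slc6a, Slc7a and Slc38a each, and 0 for Slc3a, Slc36a and Slc43a. The Slc1a count was 2 with the replicate block or array weights. The Slc6a count of 0 became 1 (Slc6a8) with the mean of a gene's probes, the offset, the lowest 25% or lower 50% left out, array weights or the trend. The Slc7a count of 1 became 0 with every probe, the lower 50% left out or the trend. The Slc38a count was 0 with every probe and 2 with the lower 50% left out or array weights. The share of all genes called moved too. It was 3.32% higher and 3.44% lower with the settings of the report, 4.41% and 4.08% with the block, 3.91% and 3.97% with the offset, 5.04% and 5.36% with the lowest 25% left out, 8.15% and 8.02% with the lower 50% left out, 5.54% and 5.33% with array weights (1189 genes, beside 740), 3.84% and 3.77% with the trend, 3.33% and 3.43% with the mean of probes, and 2.72% and 2.93% over every probe. The number of features fitted differed only with genes left out and with every probe, and the cause of these shifts was not tested.

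Of 276 changes of single members with all 8 arrays, 257 kept their sign and their side of the threshold, 10 came to pass it, 3 ceased to and 6 turned sign, none of which passed in either setting. Those that turned were Slc3a2 (0.0047 with the offset, 0.25 with array weights), Slc7a8 (0.12 with the mean of its probes, 0.080 with array weights), and, with array weights, Slc6a2 (0.043) and Slc38a2 (0.0064). Without 1 array, 13 members turned sign at least once, and their changes ranged from -0.19 to 0.24 (Slc3a2), -0.084 to 0.035 (Slc6a2), -0.028 to 0.11 (Slc6a6), -0.27 to 0.085 (Slc6a11), -0.11 to 0.043 (Slc6a15), -0.0051 to 0.071 (Slc6a17), -0.12 to 0.46 (Slc6a19), -0.10 to 0.22 (Slc7a4), -0.0049 to 0.23 (Slc7a7), -0.14 to 0.16 (Slc7a8), -0.11 to 0.021 (Slc38a2), -0.080 to 0.22 (Slc38a9) and -0.26 to 0.18 (Slc38a10). Each fit without an array also holds fewer samples. With the replicate block Slc1a4 was the 1 member whose call changed. How far dim probes stood above background is unknown here.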
